A study of Mus musculus with 14 samples.

Results

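The adult Klf5CN cornea was compared with its WT littermate cornea at postnatal day 56 (PN56), when the eyes have long been open and the mouse is a young adult. The comparison rests on 4 WT and 4 Klf5CN arrays at PN56, which are 8 of the 14 arrays of the study; the other 6 are 3 WT and 3 Klf5CN arrays at postnatal day 11 (PN11), before eyelid opening. The 8 arrays were taken by their labelled age and genotype and by nothing measured, and all 45101 probe sets of the array entered. Klf5CN mice carry Klf5 loxP/loxP and the Le-Cre transgene on a mixed background, and the WT mice are Klf5 loxP/loxP littermates without Cre, so both groups carry the floxed alleles and no Cre-only control was among the arrays. Le-Cre is driven by a Pax6 regulatory element that is active in the surface ectoderm of the eye, which gives the corneal and conjunctival epithelium, the lens and the eyelid skin; stroma, endothelium and blood-borne cells do not come from it. According to the extraction protocol, both corneas of 1 mouse, cut out around the limbus, gave the RNA of 1 array. Values are log2 signals of the array, where any signal below 10 was raised to 10 (log2 3.32, called the floor below); SE is the standard error of a difference of group means, n = 4 arrays a group.

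Klf5 is a zinc finger transcription factor of the Krüppel-like family, which binds GC-rich and CACCC-type DNA and is strongly expressed in the proliferating layers of many epithelia. The cornea is a transparent tissue with a stratified epithelium on a basement membrane, a collagen stroma kept by keratocytes, and an inner endothelium that pumps fluid out of the stroma. It holds few leukocytes and normally no blood vessels. Since whole corneas were used, fewer cells of a type and less RNA per cell cannot be told apart in any value below.

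The arrays were comparable in scale, since each had been scaled to a trimmed mean of 150, and the median signal ran from 25.9 to 35.2. Some of them stood apart. Klf5CN replicate 4 had a 3-prime to 5-prime log2 ratio of Actb, a measure of RNA integrity, of 1.40 where the other 7 PN56 arrays had 0.39 to 0.47, and its Gapdh ratio was 0.65 against -0.54 to -0.24. Between genotypes the Gapdh ratio differed by 0.40 (exact permutation test, two-sided p = 0.0286, the smallest that 4 against 4 allows) and the Actb ratio by 0.27 (p = 0.114). Klf5CN replicate 3 lay between the groups: on the first principal component, with 52.3% of the variance of the PN56 arrays, it was at 0.62, the other Klf5CN arrays at 65.4 to 77.4 and the WT arrays at -69.4 to -33.4. Xist, the transcript of the inactive X chromosome, had log2 signals of 4.60, 4.52, 12.16 and 12.28 in the WT arrays and 11.03, 11.93, 10.80 and 10.84 in the Klf5CN arrays, while the Y-linked Eif2s3y had 9.93, 9.89, 3.61 and 3.32 and 9.17, 4.14, 9.79 and 9.39. WT replicates 1 and 2 thus had the Y-linked transcript with Xist near the floor, WT replicates 3 and 4 and Klf5CN replicate 2 had Xist with the Y-linked transcript near the floor, and Klf5CN replicates 1, 3 and 4 had both at high level. The labels give no sex, the protocol describes 1 mouse per array, and how many mice each of those 3 arrays holds was not tested; with the Eif2s3y signal as a covariate, 1026 genes were higher and 254 lower in Klf5CN instead of the 970 and 222 given below.

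Klf5 itself was read by 3 probe sets. The probe set with the largest loss had log2 signals of 10.21, 10.21, 10.56 and 9.91 in the WT arrays and 6.14, 3.32, 5.15 and 4.41 in the Klf5CN arrays, a difference of -5.47 (SE 0.41, adjusted p = 4.61e-06). The next had 10.36, 10.14, 10.27 and 10.30 in WT and 6.44, 4.35, 5.22 and 5.23 in Klf5CN, a difference of -4.96 (SE 0.30, adjusted p = 3.55e-07). Every Klf5CN array was thus far below every WT array on both, and Klf5CN replicate 1 kept the highest level of its group on both. The probe set that reads Klf5 in the gene counts, because its mean over all 14 arrays is the highest, had 9.42, 9.22, 9.76 and 9.40 in WT and 9.19, 8.98, 8.69 and 9.59 in Klf5CN, a difference of -0.34 (SE 0.20, adjusted p = 0.287) with overlapping groups. Where the probes of the 3 sit relative to the floxed exons was not looked up, since no source used here places them.

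Of 13660 genes tested, 970 (7.1%) were higher in Klf5CN and 222 (1.63%) lower, at an adjusted p below 0.05 in limma and a difference of more than 2-fold; called higher or lower below means this. Over probe sets the counts were 1668 higher (5.67%) and 423 lower (1.44%) of 29416. The increases also reached further: 71 genes were higher by over 8-fold and 22 by over 16-fold, against 2 lower by over 8-fold and 0 lower by over 16-fold. In 725 of the 970 higher and 196 of the 222 lower genes the 8 arrays did not overlap. A call by fold and adjusted p favours such a separation, and the share over all genes tested is not given, so these counts are no separate support. Among the higher genes, 64 were at the floor in all WT arrays, so that their fold is a lower bound, and 58 of the higher and 3 of the lower genes were Present by the array software on none of the 8 arrays. The median difference over all genes tested was 0.02 on the log2 scale. Klf5CN replicate 3 was the lowest of the Klf5CN arrays for 825 of the 970 higher genes, with a median of 0.93 above the WT mean where the other 3 arrays had 1.83 to 1.88. On the other side, WT replicate 3 was the highest of the WT arrays for 544 of them. Lists are described below by how many of their measured genes were called; counts of 1 or 2 genes often moved by 1 or 2 when an array was left out, and a count above 2 is followed by the array wherever leaving it out moved the count by over 1.5 times, and by the count with only the 8 PN56 arrays fitted where that moved it as much. Without Klf5CN replicate 3 the counts of all genes were 1352 higher and 311 lower, and without Klf5CN replicate 4 they were 861 and 228. Every list count below is to be read beside the 7.1% higher and 1.63% lower of all genes tested. A share near these is no result about the list.

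**Figure D1:**
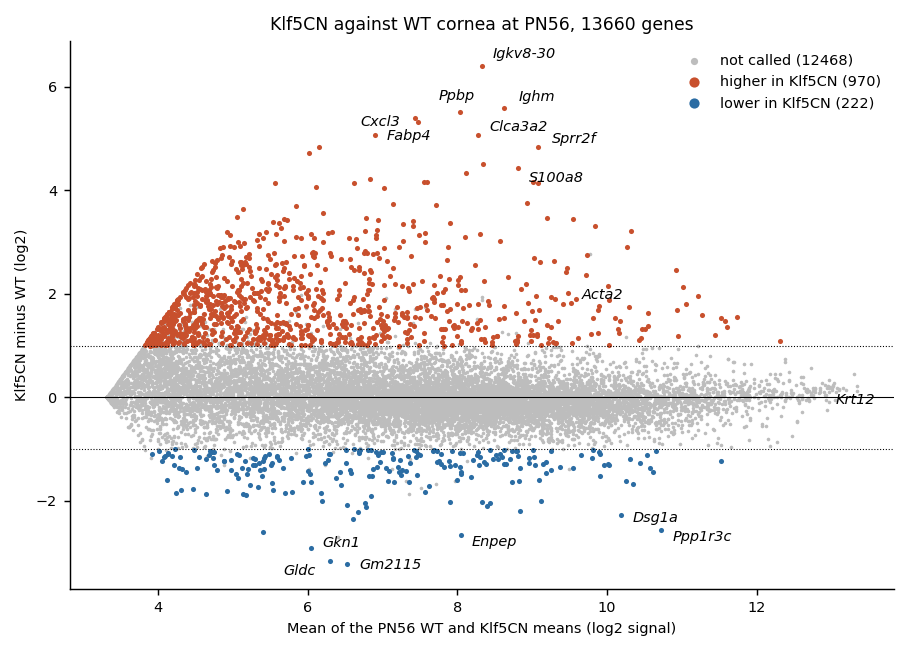
Each point is 1 of 13660 genes, placed by the mean of its PN56 WT and Klf5CN group means (x axis, log2 signal) and by the Klf5CN minus WT difference (y axis, log2, n = 4 arrays a group). Red points are the 970 genes called higher and blue points the 222 called lower; dotted lines mark a 2-fold difference, and the increases reach 6.41 (Igkv8-30) while the largest decrease is -3.21 (Gm2115).

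The genes that fell included enzymes and carriers of amino acid, folate and sugar metabolism. Gldc encodes glycine decarboxylase of the mitochondrial glycine cleavage system, and its log2 signals were 8.45, 8.43, 7.12 and 7.52 in WT and 3.60, 5.02, 5.92 and 4.39 in Klf5CN, a difference of -3.15 (SE 0.40, adjusted p = 0.000197). All 4 Klf5CN arrays were below the lowest WT array, and WT replicates 1 and 2 were about 1 log2 unit above WT replicates 3 and 4. Folr1, a folate receptor of epithelia, had 8.01, 8.15, 7.53 and 7.47 in WT and 5.29, 5.42, 5.89 and 5.14 in Klf5CN, a difference of -2.36 (SE 0.29, adjusted p = 0.000147), with little spread in either group. Folr2, the folate receptor of macrophages, was higher by 1.43 (SE 0.41, adjusted p = 0.0283), a call that is lost when any 1 of Klf5CN replicates 1, 2 and 4 or WT replicates 1 and 4 is left out. Of 16 measured genes of glycine and one-carbon metabolism, 2 were lower (1.63% of all genes were) and 1 higher (7.1%), with a median difference of -0.07.

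Glycogen genes were among those that fell. Ppp1r3c, which targets protein phosphatase to glycogen and so favours its synthesis, was among the brightest genes of the WT cornea that fell: its log2 signals were 12.01, 12.02, 11.77 and 12.23 in WT and 8.62, 8.47, 10.80 and 9.90 in Klf5CN, a difference of -2.56 (SE 0.40, adjusted p = 0.000771). Pygl, the liver-type glycogen phosphorylase that breaks glycogen down, had 9.81, 9.78, 9.97 and 10.16 in WT and 7.30, 7.30, 8.44 and 7.92 in Klf5CN, a difference of -2.19 (SE 0.29, adjusted p = 0.000276). Klf5CN replicate 3 was the highest Klf5CN array for both, and still below every WT array. In the same list of 15 measured genes 2 were called lower and 2 higher, and the median difference was -0.08. Ppp1r3b, a related targeting subunit, was higher by 1.40 (SE 0.23, adjusted p = 0.000983). The other gene counted as higher, the glycogen synthase Gys1, was Present on none of the 8 arrays, so no fold is given, and its other probe set was not called (0.43, adjusted p = 0.452). The summed signal of the list, to which bright genes such as Ppp1r3c add most, was 11240 to 13545 in the WT arrays and 4794 to 7668 in the Klf5CN arrays.

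Among 64 measured enzymes of phase I detoxification, 11 were lower (17.2%, against 1.63% of all genes) and 3 higher (4.69%, against 7.1%). The median was -0.21. Aldh1a1, a retinal and aldehyde dehydrogenase that is also counted among the soluble proteins of the corneal epithelium, had 10.89, 10.88, 9.30 and 9.41 in WT and 8.10, 7.98, 7.87 and 8.49 in Klf5CN, a difference of -2.01 (SE 0.32, adjusted p = 0.000809). As for Gldc, WT replicates 1 and 2 were higher than WT replicates 3 and 4, and the Klf5CN arrays did not reach either pair. The differences of its near relative Aldh1a7 and of the epidermal cytochrome Cyp2b19 were -1.44 and -1.77 (adjusted p = 0.00233 and 0.00241); such paralogs can share probes. The carboxylesterase Ces1d (log2 -1.40, adjusted p = 0.00925) was lower too, with overlapping groups, and Cyp4f18, a leukotriene hydroxylase of leukocytes, was higher (log2 2.10, adjusted p = 0.00462). The number lower was 7 without Klf5CN replicate 1, and the number higher 5 without Klf5CN replicate 3 and 1 with only the 8 PN56 arrays fitted. Of 28 phase II enzymes 2 were lower, among them the glutathione transferase Gsta2 (-1.27, adjusted p = 0.00103), 1 was higher, and the median was -0.47; the number lower was 5 without WT replicate 4 and 6 without Klf5CN replicate 3.

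**Figure D2:**
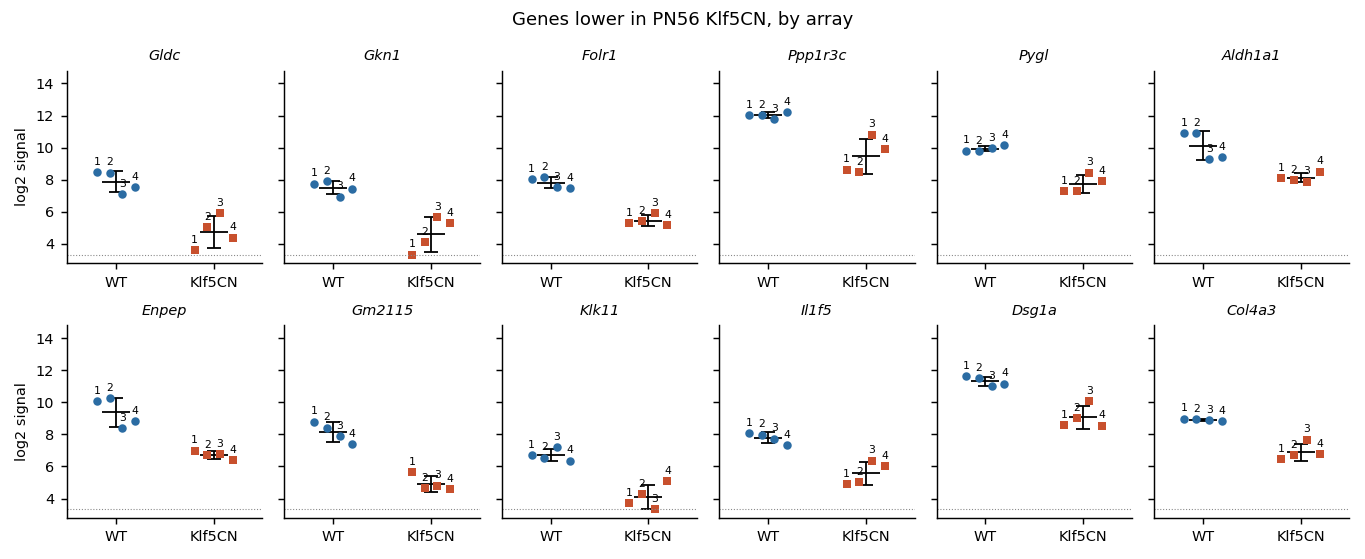
Log2 signal (y axis) of 12 genes called lower in Klf5CN, 1 panel per gene, in the 4 WT (blue circles) and 4 Klf5CN arrays (red squares) at PN56; small digits are replicate numbers, bars the mean ± SD and the dotted line the floor. In all 12 panels every Klf5CN array lies below every WT array. Apart from Aldh1a1 and Col4a3, the genes shown were named among called genes whose arrays do not overlap, so their separation follows from the choice. The differences run from -2.01 (Aldh1a1 and Col4a3) to -3.21 (Gm2115) on the log2 scale.

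Secreted and cell-surface proteins were encoded by other genes that fell. Gkn1, gastrokine 1, a secreted protein best known from the gastric surface, had log2 signals of 7.75, 7.90, 6.94 and 7.43 in WT and 3.32, 4.09, 5.66 and 5.28 in Klf5CN, a difference of -2.92 (SE 0.41, adjusted p = 0.000368), and reached the floor in Klf5CN replicate 1. Dsg1a encodes desmoglein 1 alpha, a cadherin of desmosomes in upper epithelial layers; its WT arrays lay at 11.01 to 11.62 and its Klf5CN arrays at 8.55 to 10.09, a difference of -2.27 (SE 0.30, adjusted p = 0.00024), and Klf5CN replicate 3 kept the highest level of its group. It was the only gene called among 12 measured desmosome genes, whose median was -0.11, and its probes may also read its paralogs. Il1f5, the interleukin 36 receptor antagonist of epithelia, had 8.09, 7.99, 7.73 and 7.31 in WT and 4.88, 5.02, 6.36 and 6.04 in Klf5CN, a difference of -2.21 (SE 0.29, adjusted p = 0.000246). The other probe set of Il1f5, of lower signal in WT, was at -0.29 and not called (adjusted p = 0.375). Klk11, a kallikrein-related protease of stratified epithelia, had 6.72, 6.55, 7.20 and 6.36 in WT and 3.72, 4.29, 3.32 and 5.09 in Klf5CN, a difference of -2.60 (SE 0.32, adjusted p = 0.000151). Ly6g6c, a small lipid-anchored surface protein, fell by 1.68 (SE 0.28, adjusted p = 0.00127), and with Gkn1 it made 2 lower genes of 13 measured genes of surface mucins and superficial cells. The summed signal of the 13 genes was 25016 to 26798 in WT and 13792 to 20779 in Klf5CN, so the groups did not overlap. Bright genes add most to this sum and Gkn1 little, and 11 of the 13 were not called. The median difference of the list was -0.34, and no member was called higher.

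The largest decrease of all was in Gm2115, a gene without an established function, with 8.80, 8.43, 7.88 and 7.39 in WT and 5.63, 4.66, 4.81 and 4.57 in Klf5CN and a difference of -3.21 (SE 0.30, adjusted p = 3.62e-05). Enpep encodes aminopeptidase A, which trims angiotensin II at the cell surface; it had 10.07, 10.25, 8.38 and 8.83 in WT and 6.99, 6.72, 6.78 and 6.41 in Klf5CN, a difference of -2.66 (SE 0.35, adjusted p = 0.000244). Its WT arrays again fell into a higher pair, replicates 1 and 2, and a lower pair, replicates 3 and 4, which is also how they divide by Xist. Paqr5, a membrane progestin receptor, had 9.78, 9.63, 9.01 and 9.37 in WT and 6.73, 6.55, 8.40 and 7.70 in Klf5CN, a difference of -2.10 (SE 0.32, adjusted p = 0.000682). Gldc, Aldh1a1 and Enpep kept their calls with the Eif2s3y covariate. Klf5CN replicates 1, 3 and 4 had both Eif2s3y and Xist at high level, so this covariate cannot stand for sex. The part of sex in these values was not tested.

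A pair of collagen IV genes fell; whole corneas do not show in which layer. Col4a3 and Col4a4 encode chains that, with that of Col4a5, form one type of collagen IV network. Col4a3 had 8.99, 8.94, 8.89 and 8.81 in WT and 6.45, 6.69, 7.68 and 6.76 in Klf5CN, a difference of -2.01 (SE 0.38, adjusted p = 0.00276), and Col4a4 fell by 1.60 (SE 0.27, adjusted p = 0.00117). Col4a5 had a difference of -0.82 (adjusted p = 0.00635), short of a 2-fold difference. These were the 2 genes called of 17 measured for hemidesmosomes and basement membrane, with a median of -0.14. Lamb1, a laminin chain, was at -0.99 (adjusted p = 0.00404), just short of the fold, and was called lower without any 1 of Klf5CN replicates 3 and 4 and WT replicate 3. Among 17 tight junction genes Cldn10, an ion-selective claudin, fell by 1.31 (SE 0.25, adjusted p = 0.0026), no gene was called higher and the median was -0.24. No connexin of 6 measured and no gene of cholesterol synthesis and uptake of 20 was called, although the latter list had a median of -0.65; 2 without Klf5CN replicate 3 and 4 without Klf5CN replicate 4 were called lower.

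Because Klf5 belongs to a family that binds CACCC-type sites, the promoters of 5 of the genes that fell were searched and 4 of them are shown, as RefSeq gives them for GRCm38.p6, from 250 bases before to 50 after the start site, 5′ to 3′ on the gene's strand. Capitals mark CACCC or its reverse complement GGGTG. The windows are chr19:30175392-30175691, minus strand for Gldc, chr6:87350866-87351165, minus strand for Gkn1, chr12:70227634-70227933, minus strand for Pygl and chr19:20492333-20492632, plus strand for Aldh1a1.
Gldc: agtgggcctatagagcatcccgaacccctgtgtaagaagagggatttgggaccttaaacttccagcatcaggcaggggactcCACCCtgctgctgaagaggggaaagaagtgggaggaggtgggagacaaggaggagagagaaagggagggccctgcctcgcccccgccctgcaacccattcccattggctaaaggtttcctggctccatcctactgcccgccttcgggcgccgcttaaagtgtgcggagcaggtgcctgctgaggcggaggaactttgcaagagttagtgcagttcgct
Gkn1: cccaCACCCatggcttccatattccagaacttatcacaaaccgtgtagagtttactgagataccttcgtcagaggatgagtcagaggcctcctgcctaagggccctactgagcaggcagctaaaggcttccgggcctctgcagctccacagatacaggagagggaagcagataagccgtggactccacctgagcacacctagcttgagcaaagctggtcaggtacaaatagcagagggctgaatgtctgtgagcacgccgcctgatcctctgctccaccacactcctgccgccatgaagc
Pygl: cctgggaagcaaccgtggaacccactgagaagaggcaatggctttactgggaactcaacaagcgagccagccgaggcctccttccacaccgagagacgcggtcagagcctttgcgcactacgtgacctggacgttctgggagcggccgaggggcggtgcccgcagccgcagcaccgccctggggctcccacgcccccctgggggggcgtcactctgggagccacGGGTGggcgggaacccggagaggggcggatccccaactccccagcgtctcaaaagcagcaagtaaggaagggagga
Aldh1a1: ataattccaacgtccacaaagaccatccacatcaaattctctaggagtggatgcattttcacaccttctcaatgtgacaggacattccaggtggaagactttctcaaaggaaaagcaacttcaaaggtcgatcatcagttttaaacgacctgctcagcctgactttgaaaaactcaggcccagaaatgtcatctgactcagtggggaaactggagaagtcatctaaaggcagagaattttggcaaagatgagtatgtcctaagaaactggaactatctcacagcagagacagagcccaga
The windows of Gldc, Gkn1 and Pygl hold 1 match each, as does that of Ppp1r3c, and the window of Aldh1a1 holds 0. Aldh1a1 has 2 promoters in the source used, and only the one shown was searched. At least 1 match is present in 56.7% of 27025 promoters of this length, in 63.6% of 10952 promoters of genes tested here, in 67.5% of 160 of genes called lower and in 66.2% of 733 of genes called higher. The GC box GGGCGG, on either strand, is present in 35.9% of all promoters, 62.3% of those of genes tested, 54.4% of genes called lower and 44.1% of genes called higher. A match is a string of letters and no measured binding site.

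Genes named here as defining the corneal epithelium were not called. Krt12, the cornea-specific keratin, had 12.80, 12.73, 12.87 and 12.99 in WT and 13.10, 12.63, 12.60 and 13.96 in Klf5CN, a difference of 0.23 (95% interval -0.27 to 0.72, adjusted p = 0.555), and the highest value was in Klf5CN replicate 4. Pax6, the eye field regulator that is kept on in the corneal epithelium, had 11.91, 11.90, 11.73 and 11.81 in WT and 11.39, 11.49, 11.62 and 11.07 in Klf5CN; the groups did not overlap, but the difference of -0.44 (95% interval -0.82 to -0.07, adjusted p = 0.103) did not pass. Klf4, the family member most studied beside Klf5 in the cornea, had 12.51, 12.52, 12.72 and 12.66 in WT and 12.31, 12.24, 12.58 and 13.02 in Klf5CN, a difference of -0.07 (95% interval -0.38 to 0.25, adjusted p = 0.807). Krt5 (0.17), Trp63 (-0.17) and Aldh3a1 (0.20), the basal keratin, the basal cell regulator and the main soluble enzyme of the epithelium, had adjusted p-values of 0.599, 0.528 and 0.55, and Krt14 was 0.68 higher (adjusted p = 0.0268), short of the fold. Within the Klf family of 14 measured genes Klf9, a glucocorticoid-responsive member, was higher by 1.22 (SE 0.24, adjusted p = 0.00321), and Klf12 by 1.17 (adjusted p = 0.0302) with overlapping groups and a call that is lost without any 1 of the 8 arrays but Klf5CN replicate 3; the number called higher was 1 without any 1 of Klf5CN replicates 1, 2 and 4 and WT replicates 1, 2 and 4 and 4 without Klf5CN replicate 3.

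Among 34 transcription factors of the corneal epithelium 3 were lower and 2 higher, where 1.63% and 7.1% of all genes were. Mab21l1, which is needed for lens and eye formation, had 8.84, 8.66, 8.01 and 8.42 in WT and 5.73, 6.84, 7.59 and 6.45 in Klf5CN, a difference of -1.83 (SE 0.35, adjusted p = 0.00263). Bnc1, basonuclin of the basal layer, fell by 1.29 (SE 0.30, adjusted p = 0.00916), while Sox4, a factor found in progenitor and injured epithelia, was higher by 1.90 (SE 0.20, adjusted p = 7.14e-05). Nrg1, a ligand of the EGF receptor family, fell by 1.40 (SE 0.27, adjusted p = 0.00325) and was the only gene called among 11 measured ligands and receptors of that family, whose median was -0.58. Dkk1, a secreted Wnt inhibitor, fell by 1.85 (SE 0.34, adjusted p = 0.00218); among 42 Wnt and BMP modulators 6 were higher, with Frzb, another secreted Wnt inhibitor, at 2.24 (SE 0.27, adjusted p = 0.000126). The number of higher Wnt and BMP modulators was 2 without any 1 of Klf5CN replicate 4 and WT replicate 1, 3 without any 1 of Klf5CN replicate 1 and WT replicate 2 and 3 with only the 8 PN56 arrays fitted.

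Some genes of ion and water transport fell and others rose. Slc4a11, a transporter of the corneal endothelium, fell by 1.19 (SE 0.23, adjusted p = 0.00277), Slc4a4, the sodium bicarbonate cotransporter that serves the endothelial pump, was at -1.06 (adjusted p = 0.00237), and Slc14a1, a urea transporter, had 9.66, 9.55, 8.78 and 9.38 in WT and 6.27, 6.94, 8.50 and 7.56 in Klf5CN and a difference of -2.02 (SE 0.41, adjusted p = 0.00393). The call of Slc4a4 is lost without Klf5CN replicate 1 or 4. Cnmd, chondromodulin, an inhibitor of vessel growth found in avascular tissue, had 7.61, 8.10, 8.41 and 7.21 in WT and 5.02, 6.63, 5.33 and 5.91 in Klf5CN, a difference of -2.11 (SE 0.33, adjusted p = 0.000848). Slc16a3, a lactate exporter, and the carbonic anhydrases Car12 and Car4 (Present on 1 of the 8 arrays) were higher by 2.14, 1.70 and 1.65 (adjusted p = 0.00201, 6.98e-05 and 0.00468). The list of endothelial and pump genes had 4 higher and 4 lower of 27 (14.8% each, against 7.1% and 1.63% of all genes). Aqp4, a water channel best known from astrocytes, had 3.42, 3.32, 3.85 and 5.39 in WT and 7.91, 8.16, 7.48 and 7.25 in Klf5CN, a difference of 3.70 (SE 0.38, adjusted p = 5.26e-05); its other 2 probe sets differed by 2.80 and 1.10 (adjusted p = 0.000695 and 0.0215). Aqp5 and Aqp3, the main epithelial water channels, were at -0.05 and -0.15 (adjusted p = 0.886 and 0.645). Of 268 solute carriers 24 were higher and 8 lower, which is 8.96% and 2.99% against 7.1% and 1.63% of all genes, led by Slc26a4, an anion exchanger, at 3.08 (SE 0.53, adjusted p = 0.0014); the number lower was 5 without any 1 of Klf5CN replicates 2 and 4.

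The increases were led by chemokines, immunoglobulins, small proline-rich proteins and leukocyte genes. CXC chemokines with the ELR motif bind Cxcr2 and call in neutrophils. Ppbp, Cxcl7 by its other name, had log2 signals of 3.32, 4.80, 7.54 and 5.47 in WT and 12.16, 10.74, 9.79 and 10.44 in Klf5CN, a difference of 5.50 (SE 0.68, adjusted p = 0.000154). Cxcl3 had 3.32, 4.31, 7.36 and 4.28 in WT and 11.06, 10.23, 9.42 and 9.82 in Klf5CN, a difference of 5.32 (SE 0.64, adjusted p = 0.000144), and Cxcl5 had 6.14, 7.31, 8.79 and 5.50 in WT and 11.95, 11.74, 10.44 and 10.27 in Klf5CN, a difference of 4.17 (SE 0.55, adjusted p = 0.000254). For all of them WT replicate 3 was the highest WT array and still below every Klf5CN array. Cxcl2 was higher by 2.90 (SE 0.62, adjusted p = 0.00595), Cxcl1 by 1.05 without passing (adjusted p = 0.233), and the receptor Cxcr2, at the floor in all WT arrays and Present on 1 Klf5CN array, was called higher (adjusted p = 0.000271). In all, 8 of 14 measured CXC chemokines were higher and none lower (median 1.79), where 7.1% of all genes were higher. Of 16 CC chemokines, 7 were higher (median 1.06), as were 7 of 15 chemokine receptors (median 0.90). Ccl8, which attracts monocytes and other leukocytes, had 5.34, 5.32, 7.32 and 6.37 in WT and 11.84, 10.84, 8.42 and 11.27 in Klf5CN, a difference of 4.50 (SE 0.60, adjusted p = 0.000254), and Ccl24, an eotaxin, rose from the floor in all WT arrays by at least 12.4-fold (adjusted p = 0.00089). The count of CC chemokines was 11 without WT replicate 3 and 3 with only the 8 PN56 arrays fitted.

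Ppbp, Cxcl3, Cxcl1 and Cxcl2 lie in the same region of chromosome 5 (GRCm38.p6), and their start regions are shown. The source used held no promoter of Cxcl5. Capitals mark where a window holds GGG and TTTCC with any 2 bases between them, or the reverse complement. Such a string is found in many NF-kB sites. The windows are chr5:90768268-90768567, plus strand for Ppbp, chr5:90785851-90786150, plus strand for Cxcl3, chr5:90890995-90891294, plus strand for Cxcl1 and chr5:90903649-90903948, plus strand for Cxcl2.
Ppbp: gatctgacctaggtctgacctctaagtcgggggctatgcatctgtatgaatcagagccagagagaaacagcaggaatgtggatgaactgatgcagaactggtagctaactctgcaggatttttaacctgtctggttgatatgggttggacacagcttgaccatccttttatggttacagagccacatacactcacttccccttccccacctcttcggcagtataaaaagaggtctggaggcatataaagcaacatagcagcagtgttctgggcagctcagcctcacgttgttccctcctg
Cxcl3: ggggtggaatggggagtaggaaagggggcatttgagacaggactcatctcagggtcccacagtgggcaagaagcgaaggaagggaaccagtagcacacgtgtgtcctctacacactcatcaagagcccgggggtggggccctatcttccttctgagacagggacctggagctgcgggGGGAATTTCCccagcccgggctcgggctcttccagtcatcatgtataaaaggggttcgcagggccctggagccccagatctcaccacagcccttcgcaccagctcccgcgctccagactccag
Cxcl1: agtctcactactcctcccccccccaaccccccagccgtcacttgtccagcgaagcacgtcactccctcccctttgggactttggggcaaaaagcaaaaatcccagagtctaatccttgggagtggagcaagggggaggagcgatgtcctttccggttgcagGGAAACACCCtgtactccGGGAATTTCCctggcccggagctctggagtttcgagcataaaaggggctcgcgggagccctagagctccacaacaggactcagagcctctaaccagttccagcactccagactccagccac
Cxcl2: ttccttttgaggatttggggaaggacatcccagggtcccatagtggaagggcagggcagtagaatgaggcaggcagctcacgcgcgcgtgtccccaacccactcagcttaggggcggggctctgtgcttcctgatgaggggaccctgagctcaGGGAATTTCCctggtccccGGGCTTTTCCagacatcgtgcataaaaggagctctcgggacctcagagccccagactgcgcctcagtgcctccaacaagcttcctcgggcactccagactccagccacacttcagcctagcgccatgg
The string occurs 2 times in the windows of Cxcl1 and Cxcl2, 1 time in that of Cxcl3 and 0 times in that of Ppbp, the gene with the largest difference of the 4. It is present in 1.62% of all 27025 promoters of this length, in 2.86% of those of genes called higher and in 1.25% of those of genes called lower. Of 15 measured NF-kB subunits and feedback genes 3 were higher, the inhibitors Nfkbie (1.83, adjusted p = 0.0108) and Nfkbid (1.54, adjusted p = 0.00531) and the coactivator Bcl3 (1.36, adjusted p = 0.0196), whose call is lost without any 1 of Klf5CN replicates 1 and 4 and WT replicates 1 and 2.

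**Figure D3:**
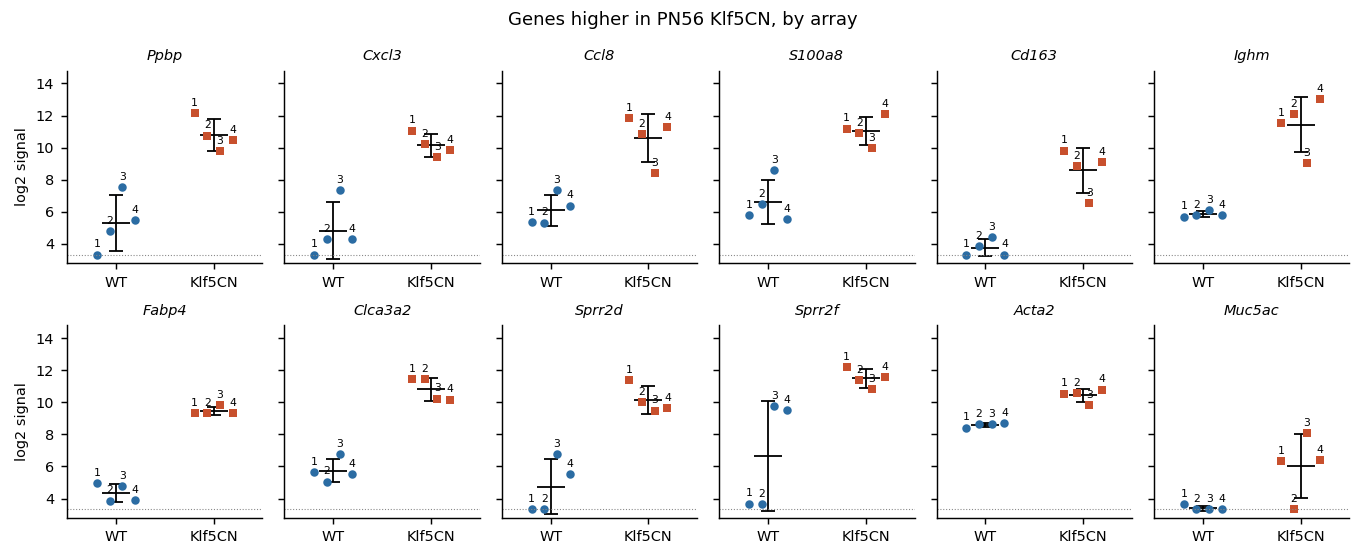
Log2 signal (y axis) of 12 genes called higher in Klf5CN, 1 panel per gene, in the 4 WT (blue circles) and 4 Klf5CN arrays (red squares) at PN56; small digits are replicate numbers, bars the mean ± SD and the dotted line the floor. Klf5CN replicate 3 is the lowest red square in the panels of Cxcl3, Ppbp, Ccl8, S100a8, Cd163, Ighm, Sprr2d, Sprr2f and Acta2, and the groups overlap in that of Muc5ac only. Apart from Acta2 and Muc5ac, the genes shown were named among called genes whose arrays do not overlap, so their separation follows from the choice.

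Genes that mark leukocytes rose across cell types. A measured gene needed a signal over 20 in at least 3 of the 14 arrays, so genes low in WT could enter through the Klf5CN arrays. The shares and medians of these lists, and of others low in WT, depend in part on that filter. The array carried 23 T and NK cell, 18 neutrophil and 17 B and plasma cell genes, of which 14, 15 and 14 were measured. Of 16 measured pan-leukocyte genes 13 were higher and none lower, and the median was 2.57. Ptprc, the leukocyte common antigen CD45, had 4.64, 5.42, 6.84 and 6.21 in WT and 9.09, 9.16, 7.47 and 8.97 in Klf5CN, a difference of 2.90 (SE 0.41, adjusted p = 0.000411), with Klf5CN replicate 3 nearest to the WT arrays. Of 27 macrophage and monocyte genes 22 were higher, with a median of 2.52. Cd163, the haemoglobin scavenger receptor of macrophages, had 3.32, 3.87, 4.43 and 3.32 in WT and 9.81, 8.87, 6.53 and 9.09 in Klf5CN, a difference of 4.84 (SE 0.59, adjusted p = 0.000149). The Fc receptor Fcgr2b and the mannose receptor Mrc1 were higher by 4.15 and 3.73 (adjusted p = 0.000303 and 0.000304). Chil3, a chitinase-like protein of alternatively activated macrophages and neutrophils, had 3.32, 3.32, 4.10 and 3.93 in WT and 9.76, 9.04, 5.70 and 9.02 in Klf5CN, a difference of 4.71 (SE 0.66, adjusted p = 0.000335). Rnase2a, an eosinophil-associated ribonuclease, was higher by 4.14 (SE 0.73, adjusted p = 0.00165), and the granule genes Epx and Prg2 of eosinophils were below the filter on low values.

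Of 15 neutrophil genes 12 were higher, with a median of 2.68. S100a8, a subunit of calprotectin found in neutrophils and in stressed epithelium, had 5.77, 6.50, 8.60 and 5.53 in WT and 11.19, 10.89, 9.96 and 12.09 in Klf5CN, a difference of 4.43 (SE 0.56, adjusted p = 0.000195). Csf3r, the receptor of the granulocyte growth factor, was higher by 3.42 (SE 0.44, adjusted p = 0.000224) and Trem1, a receptor that amplifies innate responses, by 3.08 (SE 0.37, adjusted p = 0.000143). Of 13 mast cell genes 8 were higher (median 1.39): the mucosal protease Mcpt2 had 3.32, 3.32, 3.32 and 3.62 in WT and 8.05, 6.69, 5.74 and 5.64 in Klf5CN and Hdc, which makes histamine, had 3.75, 3.32, 5.63 and 3.32 in WT and 7.91, 7.22, 6.05 and 7.91 in Klf5CN, with differences of 3.13 (SE 0.39, adjusted p = 0.000173) and 3.27 (SE 0.49, adjusted p = 0.000538). The other probe set of Hdc was at 1.89 and not called (adjusted p = 0.0558). Of 14 T and NK cell genes 9 were higher (median 1.54), among them Gzmb (granzyme B, 2.63, adjusted p = 0.000263), Ctla4 (2.61, adjusted p = 5.67e-05) and Cd3g of the T cell receptor complex (1.97, adjusted p = 0.000299). Of 11 dendritic cell genes 4 were higher, and 8 without Klf5CN replicate 3.

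Immunoglobulin genes held the largest differences of the comparison. Ighm, the heavy chain of IgM, had 5.69, 5.77, 6.10 and 5.79 in WT and 11.55, 12.10, 9.02 and 13.01 in Klf5CN, a difference of 5.58 (SE 0.56, adjusted p = 4.98e-05). Igkv8-30, a light chain variable gene, had 4.74, 3.32, 6.33 and 6.12 in WT and 12.30, 12.58, 7.83 and 13.43 in Klf5CN, a difference of 6.41 (SE 0.93, adjusted p = 0.000447). Jchain, which joins IgM and IgA for secretion, had 4.84, 4.10, 5.99 and 6.98 in WT and 10.28, 10.79, 6.97 and 10.53 in Klf5CN, a difference of 4.17 (SE 0.72, adjusted p = 0.00143), with Klf5CN replicate 3 just below WT replicate 4. In all of them Klf5CN replicate 3 was far below the other Klf5CN arrays. Iglv1 rose from the floor in all WT arrays by at least 11.1-fold (adjusted p = 0.00143), and Igha, the heavy chain of IgA, by 3.71 (SE 0.55, adjusted p = 0.000487). The summed signal of the B and plasma cell list was 313 to 581 in the WT arrays and 11128, 14037, 1425 and 23256 in the Klf5CN arrays. Probe sets of immunoglobulin genes can read several related chains, and the gene read for Ighm was Present on 0 WT arrays by the array software.

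In other marker lists the Klf5CN arrays differed among themselves. Photoreceptor genes, which mark the retina and have no known place in the cornea, were at a summed signal of 176 to 324 in the WT arrays, at 1442 and 3142 in Klf5CN replicates 1 and 2 and at 399 and 450 in replicates 3 and 4. Gnat1, the transducin of rods, had 4.36, 5.18, 3.82 and 5.45 in WT and 8.63, 9.40, 6.21 and 6.59 in Klf5CN, a difference of 3.00 (SE 0.67, adjusted p = 0.00775), and 4 of 10 measured retina genes were called higher; the count was 2 without any 1 of Klf5CN replicates 1 and 2 and WT replicates 1 and 3, 7 without Klf5CN replicate 3 and 2 with only the 8 PN56 arrays fitted. Keratocyte genes summed to 15355 to 20714 in the WT arrays and to 32517, 23274, 15280 and 52742 in Klf5CN replicates 1 to 4, with 6 of 15 higher and 11 without Klf5CN replicate 3. Melanocyte and iris pigment genes summed to 989 to 1887 in WT and 603 to 1094 in Klf5CN, with a median difference of -0.68; 1 of 8 was called lower, Tyrp1 of melanin synthesis (-1.14, adjusted p = 0.0317), and 0 without any 1 of Klf5CN replicates 2 and 3 and WT replicates 1 and 4. The lens crystallins summed to 1953 to 7550 across the WT arrays and 858 to 6319 across the Klf5CN arrays, and none of 17 was called. Skeletal muscle, erythrocyte and nerve lists held 0, 0 and 1 called genes, and their summed signals overlapped between the groups. Of the adipocyte list only Fabp4 was called, while Adipoq, Lep and Cidec were below the filter. The part of other tissue in the dissected samples was not tested.

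**Figure D4:**
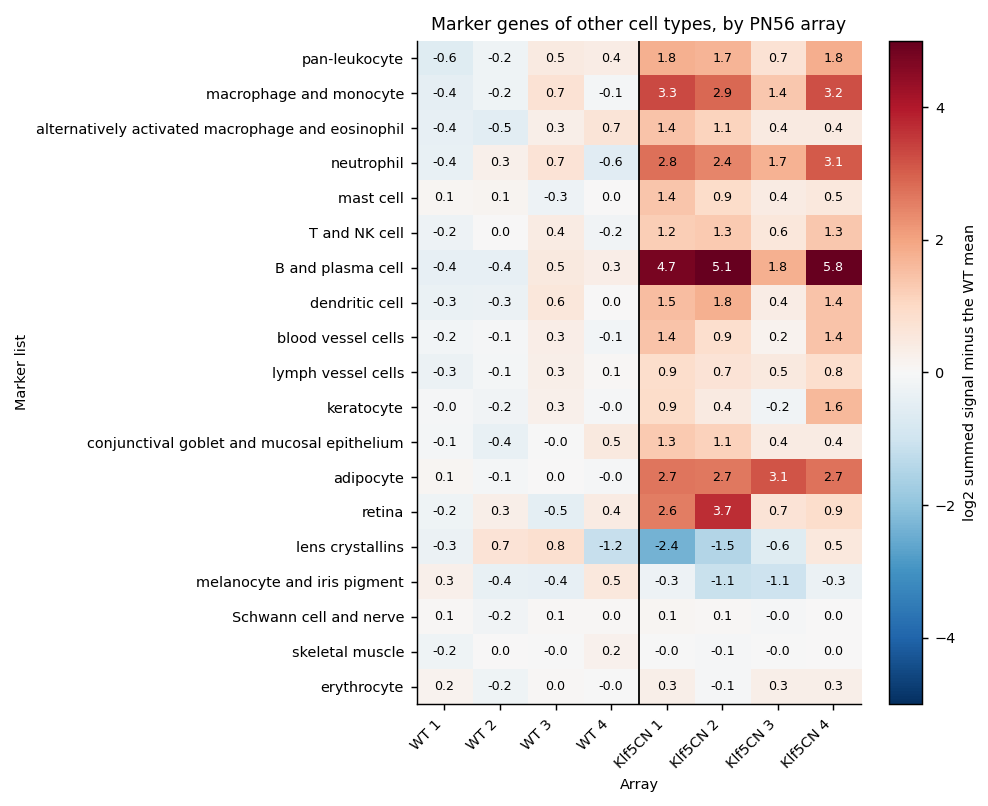
Log2 of the summed signal of each marker list (rows) in each PN56 array (columns), minus the mean of the 4 WT arrays; red is higher and blue lower than that mean. B and plasma cell genes reach 4.7, 5.1 and 5.8 in Klf5CN replicates 1, 2 and 4 and 1.8 in replicate 3, retina genes 2.6 and 3.7 in replicates 1 and 2, and the nerve, muscle and erythrocyte lists stay between -0.2 and 0.3.

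Soluble defence proteins and cytokines rose with the leukocyte genes. Of 26 measured genes of secreted innate defence 19 were higher and none lower, with a median of 2.10. Lcn2, which binds bacterial siderophores, was higher by 3.21 (SE 0.45, adjusted p = 0.000328), the antiprotease Slpi by 2.88 (SE 0.51, adjusted p = 0.00177) and the chitinase-like Chil1 by 3.45 (SE 0.50, adjusted p = 0.000462). Il1b, a principal inflammatory cytokine, had 5.32, 5.17, 7.34 and 5.01 in WT and 9.97, 9.14, 8.10 and 9.23 in Klf5CN, a difference of 3.40 (SE 0.45, adjusted p = 0.000246), with WT replicate 3 far above the other WT arrays. The epithelial alarmin Il1a was higher by 1.07 (SE 0.21, adjusted p = 0.00368), a call lost without Klf5CN replicate 3 or WT replicate 2, and with them 7 of 17 genes of the interleukin 1 family were higher and 1, the Il1f5 described above, lower. Il10, an anti-inflammatory cytokine, was higher by 2.32 (SE 0.20, adjusted p = 1.96e-05) and was 1 of 15 higher genes among 36 measured interleukins and receptors outside that family. Of 24 complement genes 13 were higher (median 1.12), such as C1qa of the first component (3.36, adjusted p = 0.00701) and the integrin chain Itgb2 (3.09, adjusted p = 8.92e-05). Cd55, which protects cells from complement, fell by 1.80 (SE 0.20, adjusted p = 8.91e-05). MHC class II, the antigen-presenting molecules, had 7 of 10 genes higher (median 1.47), with H2-Aa at 2.70 and Cd74 at 2.76 (adjusted p = 0.000328 and 0.000515). Interferon-stimulated genes had 5 of 31 higher (16.1%, median 0.60), where 7.1% of all genes were. That count was 2 without any 1 of WT replicates 1 and 2, 3 without Klf5CN replicate 2 and 2 with only the 8 PN56 arrays fitted.

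Genes of lipid mediators were among those that rose. Alox15, a lipoxygenase that the mouse cornea uses to make protective lipid mediators, had 8.87, 9.06, 10.60 and 11.29 in WT and 12.74, 12.39, 11.58 and 11.63 in Klf5CN, a difference of 2.13 (SE 0.48, adjusted p = 0.00779); WT replicates 3 and 4 lay above replicates 1 and 2. Alox12e was higher by 1.47 (SE 0.20, adjusted p = 0.000267) and Alox5ap, the partner of 5-lipoxygenase in leukocytes, by 2.72 (SE 0.48, adjusted p = 0.00166), so that 7 of 18 genes of lipoxygenase and prostaglandin metabolism were higher. Ptgs2, the inducible cyclooxygenase, was higher by 1.75 (SE 0.47, adjusted p = 0.0212), with overlapping groups, a call that is lost without Klf5CN replicate 1 or any 1 of WT replicates 1, 2 and 4. Immediate early genes had 4 of 16 higher (25%, against 7.1% of all genes), with Nr4a1 at 2.92 (SE 0.39, adjusted p = 0.000267) and Egr2 at 1.70 (SE 0.25, adjusted p = 0.000425). Toll-like receptors and adaptors had 4 of 17 higher, led by the adaptors of lipopolysaccharide sensing Ly86 (2.73) and Cd14 (2.65), with adjusted p-values of 0.000246 and 0.000259.

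**Figure D5:**
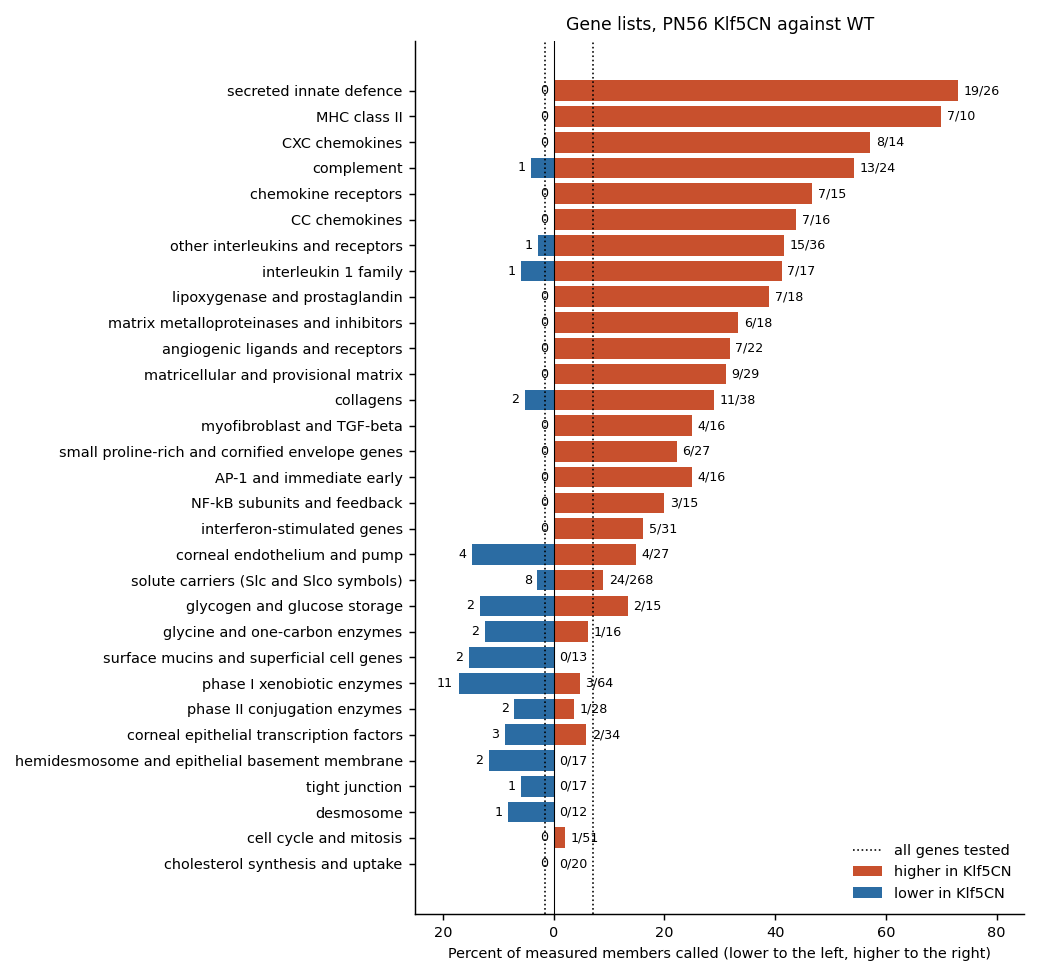
Share of the measured members of each gene list (rows) that were called higher (red, to the right) or lower (blue, to the left) in PN56 Klf5CN, in percent, with the counts beside the bars; dotted lines mark the 7.1% and 1.63% of all 13660 genes. Of the lists shown, secreted defence, MHC class II, CXC chemokines and complement have over 50% of their members higher, and the phase I enzymes have the most lower genes, 11 of 64.

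Genes of cornified and stressed epithelium rose in part. Sprr2d and Sprr2f encode small proline-rich proteins of the cornified envelope. Sprr2d had 3.32, 3.32, 6.77 and 5.52 in WT and 11.40, 10.02, 9.48 and 9.63 in Klf5CN, a difference of 5.40 (SE 0.66, adjusted p = 0.000149). Sprr2f had 3.69, 3.63, 9.75 and 9.54 in WT and 12.19, 11.40, 10.81 and 11.57 in Klf5CN, a difference of 4.84 (SE 1.12, adjusted p = 0.00955): WT replicates 1 and 2 were near the floor and WT replicates 3 and 4 near 9.6, so the difference from the Klf5CN arrays is about 8 log2 units for one pair and 2 for the other. Sprr1a followed the same split in WT (7.71, 8.48, 11.58 and 10.99) and was higher by 2.45 (SE 0.63, adjusted p = 0.0162), a call lost without WT replicate 2. Of 27 measured genes of this kind 6 were higher and none lower, the median was 0.07, and the number higher was 3 without Klf5CN replicate 1 and 1 with only the 8 PN56 arrays fitted; members of the Sprr2 cluster are near-identical and may share probes. Krt17, a keratin of injured epithelium, had 7.67, 8.79, 10.12 and 9.19 in WT and 11.31, 11.32, 10.55 and 11.21 in Klf5CN, a difference of 2.15 (SE 0.38, adjusted p = 0.0016), while Krt6a and Krt6b were at 0.17 and 0.19 (adjusted p = 0.548 and 0.539). Krt18, a keratin of simple epithelia, had 8.19, 8.78, 8.14 and 7.77 in WT and 10.85, 11.40, 10.03 and 10.60 in Klf5CN, a difference of 2.50 (SE 0.25, adjusted p = 4.85e-05), and its partner Krt8 was higher by 1.19 (SE 0.25, adjusted p = 0.00562). Krt78 fell by 1.20 (SE 0.25, adjusted p = 0.00441).

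Mucosal genes varied between arrays. Muc5ac, the gel-forming mucin of conjunctival goblet cells, had 3.64, 3.32, 3.32 and 3.32 in WT and 6.35, 3.32, 8.09 and 6.40 in Klf5CN, a difference of 2.64 (SE 0.66, adjusted p = 0.0138): it was at the floor in Klf5CN replicate 2 and highest in replicate 3. Its call is lost without Klf5CN replicates 3 and 4 together. Gsdmc2, a gasdermin of mucosal epithelium, had 3.35, 3.32, 4.04 and 8.22 in WT and 9.27, 10.38, 8.18 and 7.95 in Klf5CN, a difference of 4.21 (SE 0.84, adjusted p = 0.00382), and WT replicate 4 lay within the range of the Klf5CN arrays. The list of goblet and mucosal genes had 3 of 13 higher, 5 without Klf5CN replicate 3, 6 without WT replicate 4 and 1 with only the 8 PN56 arrays fitted. Clca3a2, a calcium-activated chloride channel regulator, had 5.66, 5.06, 6.77 and 5.50 in WT and 11.44, 11.45, 10.23 and 10.17 in Klf5CN, a difference of 5.08 (SE 0.37, adjusted p = 3.82e-06), with no Klf5CN array below 10. Its relative Clca3a1 was higher by 3.07 (SE 0.27, adjusted p = 1.81e-05), by a probe set that may read both. Among channels of another family, Ano1 was higher by 2.07 (SE 0.26, adjusted p = 0.000158). Ano9 and Ano4 were lower, with differences of -1.85 and -1.86 (adjusted p = 0.000434 and 0.0098). The list of transient receptor and calcium-activated channels had 5 higher and 2 lower of 21 (23.8% and 9.52%, against 7.1% and 1.63% of all genes).

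Matrix and stromal genes rose unevenly across the Klf5CN arrays. Col3a1, the fibrillar collagen of wounds and vessels, had 8.44, 8.89, 9.51 and 8.39 in WT and 12.06, 11.55, 10.29 and 12.97 in Klf5CN, a difference of 2.91 (SE 0.40, adjusted p = 0.000328). Of 38 measured collagen genes 11 were higher and 2, the Col4a3 and Col4a4 above, lower; the number higher was 6 without any 1 of Klf5CN replicates 1 and 4 and WT replicate 4, 7 without WT replicate 2 and 4 with only the 8 PN56 arrays fitted. Small leucine-rich proteoglycans had 3 of 16 higher, led by Aspn, asporin, at 2.61 (SE 0.28, adjusted p = 6.92e-05), and the count was 1 without any 1 of Klf5CN replicates 1 and 4 and WT replicates 1 and 4, 8 without Klf5CN replicate 3 and 1 with only the 8 PN56 arrays fitted. Kera and Lum, the keratan sulphate proteoglycans of the clear stroma, were at 0.57 (adjusted p = 0.425) and 0.96 (adjusted p = 0.0191), and both were called higher without Klf5CN replicate 3, Lum also without WT replicate 3. Tnc, tenascin C of healing matrix, had 6.90, 7.90, 9.33 and 7.80 in WT and 11.22, 11.13, 9.73 and 10.33 in Klf5CN, a difference of 2.62 (SE 0.41, adjusted p = 0.000751), and it was 1 of 9 higher genes of 29 of matricellular and provisional matrix. Mmp13, a collagenase, had 3.73, 4.16, 7.17 and 3.87 in WT and 8.59, 7.95, 6.48 and 8.66 in Klf5CN, a difference of 3.18 (SE 0.67, adjusted p = 0.00513), with WT replicate 3 above Klf5CN replicate 3; Mmp3 and Mmp9 were higher by 3.31 and 2.02 (adjusted p = 0.00102 and 0.00265).

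Acta2, smooth muscle actin, which marks myofibroblasts and the wall cells of vessels, had 8.42, 8.66, 8.65 and 8.71 in WT and 10.54, 10.56, 9.84 and 10.79 in Klf5CN, a difference of 1.82 (SE 0.18, adjusted p = 4.98e-05), with little spread in either group. Together with the latent TGF-beta binding protein Ltbp2 (2.71) and the activin subunit Inhba (2.61), whose adjusted p-values were 0.000975 and 0.00178, 4 of 16 genes of myofibroblasts and TGF-beta were higher, and 8 without Klf5CN replicate 3. Some vessel genes rose from low levels. Vwf, von Willebrand factor of endothelium, had 3.32, 3.32, 4.31 and 3.66 in WT and 6.50, 5.68, 4.72 and 5.57 in Klf5CN, a difference of 1.96 (SE 0.31, adjusted p = 0.00086). Plvap, a protein of endothelial openings, was higher by 1.83 (SE 0.45, adjusted p = 0.0132), and Pecam1 was at 0.99 (adjusted p = 0.408). Of 17 vessel genes 4 were higher (23.5%, against 7.1% of all genes), and 7 without Klf5CN replicate 3. Among 22 angiogenic ligands and receptors 7 were higher, with the VEGF receptor Flt1 at 2.10 (SE 0.28, adjusted p = 0.000259) and the apelin receptor Aplnr at 2.15 (SE 0.33, adjusted p = 0.000642). The other probe set of Aplnr was at 0.72 and not called (adjusted p = 0.0799). Lyve1, which marks lymph vessels and some macrophages, was at 1.81 without passing (adjusted p = 0.0629), and passed without Klf5CN replicate 3.

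Fabp4 and Basp1 rose from low levels. Fabp4, a fatty acid carrier of adipocytes, macrophages and small vessels, had 4.94, 3.87, 4.76 and 3.92 in WT and 9.31, 9.31, 9.82 and 9.32 in Klf5CN, a difference of 5.07 (SE 0.22, adjusted p = 2.43e-08). The Klf5CN arrays lay close together, and Klf5CN replicate 3 was the highest of them. Basp1, a membrane protein of nerve growth cones, had 5.66, 5.70, 6.53 and 5.90 in WT and 10.71, 10.78, 9.12 and 10.49 in Klf5CN, a difference of 4.33 (SE 0.31, adjusted p = 3.4e-06), with Klf5CN replicate 3 below the other Klf5CN arrays. Sorbs2, an actin-linked adaptor chosen here after its values were seen, had 9.66, 9.28, 9.42 and 9.44 in WT and 7.28, 7.52, 7.52 and 7.33 in Klf5CN and a difference of -2.04 (SE 0.11, adjusted p = 1.29e-07).

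The PN56 effect was also set against that of the 6 PN11 arrays, with which it shares no array. Of these, PN11 Klf5CN replicate 3 had a 3-prime to 5-prime log2 ratio of 6.18 for Gapdh, where the other 5 had -0.51 to -0.32, and of 1.62 for Actb, where they had 0.23 to 0.35. It entered the PN11 effects and the spread of the fit, and its part in these results was not tested beyond leaving it out. Of the 970 genes called higher at PN56, 326 were called higher at PN11, and of the 222 lower, 58 were called lower, where 3.8% and 1.48% of all genes tested were called higher and lower at PN11. Without PN11 Klf5CN replicate 3 the shared counts were 313 and 63. The median PN11 differences of the 970 and the 222 genes were 0.93 and -0.69. The difference between the effects passed an adjusted p of 0.05 for 77 genes (0.564%), of which 27 were called higher and 13 lower at PN56, and this number moved from 23 to 296 when single arrays were left out, the most without Klf5CN replicate 3 at PN56 and the fewest without WT replicate 1 at PN11; without Klf5CN replicate 3 at PN11 it was 59. Ighm was 5.58 higher at PN56 and -0.33 at PN11 (difference 5.91, SE 0.86, adjusted p = 0.00683). Fabp4 was 5.07 higher at PN56 and 1.83 at PN11 (difference 3.24, SE 0.34, adjusted p = 0.000456), and Basp1 4.33 and 0.60 (difference 3.73, SE 0.47, adjusted p = 0.00204). Serpinb3a, a protease inhibitor of stratified epithelium with 6.14, 6.11, 8.69 and 7.29 in WT and 6.87, 7.96, 7.69 and 7.24 in Klf5CN, was not called at PN56 (0.38) and was at -3.20 at PN11 (adjusted p of the difference = 0.0428).

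In the other direction the Klf5CN minus WT difference of the secreted proteins Ltf, Sftpd, Wfdc18 and Spink12 was smaller in the adult. By the PN11 means that the study reported, the WT level of Ltf, Sftpd and Wfdc18 was higher in the adult than at PN11. For Ltf and Wfdc18 the Klf5CN level was nearly the same at both ages, while for Spink12 the Klf5CN level was far lower in the adult. Ltf, lactoferrin, had 9.87, 10.71, 10.51 and 9.87 in WT and 12.46, 12.15, 11.70 and 12.46 in Klf5CN at PN56, a difference of 1.95 (SE 0.22, adjusted p = 9.69e-05), against 5.20 at PN11 (adjusted p of the difference = 0.000456). Sftpd, the lectin surfactant protein D, had 8.32, 8.80, 8.14 and 7.71 in WT and 10.91, 11.21, 9.71 and 10.81 in Klf5CN, a difference of 2.42 (SE 0.33, adjusted p = 0.000318), against 7.25 (adjusted p of the difference = 0.000456). Wfdc18, a small antiprotease-like protein, had 10.07, 10.69, 10.94 and 11.34 in WT and 12.43, 12.35, 11.58 and 12.82 in Klf5CN, a difference of 1.53 (SE 0.35, adjusted p = 0.00791), against 6.39 (adjusted p of the difference = 0.000534). Spink12, a protease inhibitor, was at the floor in all WT arrays and at 3.85, 4.06, 3.55 and 4.78 in Klf5CN (adjusted p = 0.0591), against 4.54 at PN11 (adjusted p of the difference = 0.000453). Of the genes that fell, Enpep and Gm2115 were at 0.17 and -0.74 at PN11 (adjusted p of the difference = 0.035 and 0.0307), Sorbs2 was at -0.29 (0.000453), and Vgll3, a transcription cofactor also chosen after its values were seen, with 8.11, 8.32, 7.46 and 7.34 in WT and 6.31, 5.54, 5.68 and 6.04 in Klf5CN, was -1.91 at PN56 and 1.18 at PN11 (0.000922).

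Several lists held few called genes. Of 51 measured cell cycle and mitosis genes 1 was higher, Ccnd2, the D-type cyclin, at 1.05 (SE 0.20, adjusted p = 0.00294), with overlapping groups and a call that is lost without any 1 of Klf5CN replicates 1, 2 and 4 and WT replicates 2 and 3; the median was 0.41. Of 20 Notch genes 1 was higher, Dlk2, a Notch-like ligand (1.05, adjusted p = 0.0181), a call lost without Klf5CN replicate 4 or WT replicate 1. None of 21 chaperones of the endoplasmic reticulum and 1 of 18 clock genes, the repressor Nfil3 (2.35, adjusted p = 0.00389), was called. Of 29 genes of antioxidant and metal defence 3 were higher, 1 without any 1 of Klf5CN replicate 4 and WT replicate 1, and 1 was lower: the gene counted as lower, the metallothionein Mt3, was Present on none of the 8 arrays, and its call is lost without WT replicate 4. Of 21 measured genes that the study also assayed by quantitative PCR, 6 were higher and 1 lower on the arrays; Slurp1, a secreted protein of the corneal epithelium (-0.94, adjusted p = 0.075), the uroplakin Upk1b (-0.52, adjusted p = 0.0302), the mucins Muc1 (0.70) and Muc20 (-0.27) and Nfkb2 (0.84) were among those not called, with Slurp1 called lower without Klf5CN replicate 3.

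Probe sets of the same gene mostly moved together. Of 475 called genes with several tested probe sets, 458 had all of them on the same side of 0, 275 had another called the same way and 0 had one called the other way. Among the genes named here the largest gaps within a gene were, beside Klf5, in Ighm (1.21 to 7.76), Laptm5, a lysosomal protein of leukocytes (-0.08 to 3.42), Dio2, which activates thyroid hormone (-0.34 to 2.53), Sulf2, a sulfatase of heparan sulphate (-0.34 to 2.29), and Aqp4. Reading each gene by another of its probe sets could add calls, since 103 genes not called had a probe set called higher and 76 one called lower, Klf5 among the latter.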

How the data were processed

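Signal intensities were deposited by the authors, who computed them with GCOS 1.4 from Affymetrix mouse 430 2 arrays, each scaled to a trimmed mean of 150; both deposited tables hold the same values. The deposited number of Present calls per group was used as a description. Columns of pairwise signal log ratios and change calls between arrays hold the authors' own comparisons and were not used. Signals under 10 were raised to 10 (29.1% of PN56 values) and log2 was taken, with no further normalization. Probe sets with a signal over 20 in at least 3 of the 14 arrays were kept (29416 of 45101). Of all probe sets 34958 had exactly 1 symbol in the platform annotation, 932 had several and 9211 none; where several tested probe sets named one gene, the brightest on average stood for it.

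A linear model over the 4 groups was fitted with limma 3.58.1 (R 4.3.3; empirical Bayes with a trend), so the PN11 arrays share in the estimate of the spread. Benjamini-Hochberg adjustment ran over all 29416 probe sets. On simulated data 93 of 100 3-fold and 99 of 100 6-fold changes were recovered, with 6 false calls. The simulated noise was normal, independent between probe sets, and had the same spread in all groups. Changes were placed only in brighter probe sets, away from the floor. No simulated array stood apart as Klf5CN replicates 3 and 4 do, so these figures are no error rate of the calls given here. Single values were tested with exact permutation tests (scipy 1.17.1), and other tables were made with pandas 2.3.3. Members and gene lists, and the tests, were chosen with earlier results of these data known. A rule named 246 genes, among them the largest changes, the largest differences between ages and the genes assayed by quantitative PCR. From each list it took the called genes with the largest differences, or the largest differences where none was called. The genes quoted for a list were thus mostly picked by outcome and do not represent its other members. Only a small set of defining genes, such as Krt12, Pax6 and Klf4, was named whatever the values. Sorbs2, Vgll3, Iglv1, Lcn2, Slpi, Chil1, Cd3g, Trem1, Mmp9, Col4a5, Cxcl1, Krt6a and Krt6b were added after their values were seen. Arrays with the same replicate number did not deviate together (correlations -0.06, 0.07, -0.20 and 0.09), and whether the arrays of a group came from separate litters is not stated. Paralogs and related chains (Sprr2, immunoglobulin, Mcpt, Clca3a, Chil3, Dsg1, Aldh1a, H2) can share probes.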

Additional observations from a re-analysis of the deposited data

Results flagged for a closer look

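For each value, each group of 4 arrays was searched for a single array whose gap to its nearest neighbour took up an unusually large share of the group's range, above Dixon's 95% limit for 4 values; 18 of 178 groups had one, and chance alone gives about 1 in 20. Klf5CN replicate 3 was the low array for the summed pan-leukocyte (0.862) and T and NK cell genes (0.844), for Jchain (0.865), Krt17 (0.848) and Ptprc (0.893), and on the first principal component (0.844). It was the high array for Fabp4 (0.966) and the summed adipocyte genes (0.913), of which only Fabp4 was called. Klf5CN replicate 4 stood apart in the 3-prime to 5-prime ratios of Actb (0.94) and Gapdh (0.906), and Klf5CN replicate 2 was low for erythrocyte genes (0.973). In WT, replicate 3 was high for Il1b (0.867), Mmp13 (0.875) and blood vessel genes (0.832), replicate 4 for Gsdmc2 (0.854) and Mcpt2 (1), replicate 1 for Muc5ac (1), the latter 2 against arrays that were all at the floor, and replicate 2 was low for nerve genes (0.912).

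The Klf5CN effect differed between PN56 and PN11 by the interaction of age and genotype in limma for 12 genes of the text. The effect at PN56 minus that at PN11 was 5.91 for Ighm, 3.73 for Basp1, 3.59 for Serpinb3a and 3.24 for Fabp4 on the log2 scale. It was -4.85 for Wfdc18, -4.83 for Sftpd, -3.8 for Spink12, -3.25 for Ltf, -3.09 for Vgll3, -2.82 for Enpep, -2.47 for Gm2115 and -1.74 for Sorbs2.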

How the results depend on the processing

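Of 218 called genes of the text, 145 kept their call under all 33 alternatives run, and no called difference changed sign. With any signal under 32 raised to 32, 55 of them fell short, with only the 8 PN56 arrays fitted 34, and with Eif2s3y as a covariate, chosen after seeing the data, 1. Without a minimum fold, 1606 genes and 2728 probe sets were higher and 1051 and 1775 lower. With the level of 32, 511 genes and 842 probe sets were higher. With log2 of signal plus 16, 1094 probe sets were higher, and 139 genes and 244 probe sets lower. With array quality weights 344 genes and 635 probe sets were lower, and without Klf5CN replicates 3 and 4, also chosen after seeing the data, 368 and 660. Leaving out single arrays gave 791 to 1352 genes higher, 177 to 311 genes lower, 1346 to 2331 probe sets higher and 318 to 648 probe sets lower. The 77 genes whose effect differed between ages became 23 to 296 without single arrays, 387 without both Klf5CN arrays, 120 with the Actb ratio as a covariate, 608 with array weights, 210 at the level of 32 and 27 when replicate number entered as a block. The block gave 887 genes higher and 213 lower, and whether equal numbers mark littermates is not stated. The Gapdh ratio difference was 0.164 to 0.493 and that of Actb 0.031 to 0.360 without single arrays. The cause of these shifts was not tested. The share of calls that were higher was 81.4%, and 73.8% after quantile normalization and 75.2% after subtracting array medians, which moved the median of all genes by -0.04 and -0.09. Genes near the floor have no order there and folds from it are lower bounds; the number of arrays, 4 a group, limits the precision.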
